A study of Mus musculus with 6 samples.

Results

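The subject here is a list of genes of transcription regulators grouped under T cell quiescence and stemness: Tcf7, Lef1, Satb1, Bach2, Foxp1, Foxo1, Foxo3, Ets1, Id3 and Id2. The grouping does not mean that each of them holds T cells in a resting state. The 10 genes were listed by name, and each was read from the probe set that names only that gene and has the highest mean over the arrays. Of the 10, 9 were measured, out of 19938 genes in all, with 1 such probe set each, while Tcf7 has no probe set named in the annotation used here and is not analysed. Affymetrix arrays measured RNA of BDC2.5 CD4 T cells, whose T cell receptor recognises a pancreatic beta cell antigen, after transfer into NOD mice, a strain that develops autoimmune diabetes. The tested cells came from mice given 100 ng of anti-DCIR2-BDC or 100 ng of anti-DEC205-BDC, antibodies that carry the BDC antigen to dendritic cells bearing DCIR2 or DEC205, and the control cells came from mice given PBS. All recipients were female, aged 7 weeks, and the T cells were sorted from spleen as Thy1.1+CD4+ cells after 14 h. The 3 groups are represented by 2 arrays each, described as biological duplicates, with the number of mice behind an array not stated, so p-values measure the spread between these arrays only. No group received an antibody without the antigen, so effects of antigen and of antibody cannot be told apart.

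Lef1 and its relative Tcf7 are HMG-box proteins that bind DNA at the same short sequence and keep naive and memory T cells able to self-renew. Satb1 folds chromatin into loops in thymocytes and T cells, Bach2 represses effector genes by competing with AP-1 factors, and Ets1 sustains T cell survival and receptor genes. The forkhead factors Foxo1 and Foxo3 drive genes of homing, survival and cell cycle arrest and leave the nucleus when Akt phosphorylates them, which an array cannot see, and Foxp1 restrains naive T cells from responding. Id2 and Id3 have no DNA-binding region of their own and hold E proteins off DNA.

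Sorted cells had the markers of CD4 T cells. The median T cell marker lay at percentile 99.1 of all genes by mean signal, with Cd3e at 99.7, Thy1 at 99.6 and Cd4 at 99.1. The list medians of other cells were 50.1 for CD8 T cells (Cd8b1 at 65.3), 42.8 for erythroid cells and 40.7 for macrophages and monocytes. They were 39.4 for B cells, 31.2 for dendritic cells, 30.9 for plasma cells, 29.2 for neutrophils and 17.5 for natural killer and innate lymphoid cells. Brightness also depends on the probe set. Arrays correlated at 0.974 to 0.982 within groups, and anti-DCIR2-BDC arrays correlated with PBS arrays at 0.940 to 0.947. None of the 9 genes was in the dimmest 50% of genes.

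The bases before the annotated start are shown for Lef1 and Satb1, the genes called in both comparisons with PBS, and for Id2 and Id3, whose measured changes had opposite signs. They are the 250 bases before the outermost RefSeq start on GRCm38.p6. The set of promoter sequences used here held an entry for 9 of the 10 genes. It held none for Ets1, although RefSeq places that gene on chromosome 9. The windows lie at chr3:131110047-131110296 on the plus strand for Lef1 and chr17:51833291-51833540 on the minus strand for Satb1. Those of the Id genes lie at chr12:25096093-25096342 on the minus strand for Id2 and chr4:136143572-136143821 on the plus strand for Id3. Capitals mark matches, on either strand, to CTTTGA (the core bound by TCF and LEF proteins), TGTTTAC (forkhead), CGGAAG (ETS), CAGNTG (an E-box of E proteins) and TGACTCA (AP-1 and BACH). These motifs occurred in 13.8%, 3.17%, 13.6%, 44.8% and 4.46% of the same windows of 32851 promoters, in that order.
Lef1: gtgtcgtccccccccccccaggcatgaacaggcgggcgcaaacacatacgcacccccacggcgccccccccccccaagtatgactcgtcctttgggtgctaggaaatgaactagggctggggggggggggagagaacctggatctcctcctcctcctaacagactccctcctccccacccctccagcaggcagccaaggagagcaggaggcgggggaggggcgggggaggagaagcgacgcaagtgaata
Satb1: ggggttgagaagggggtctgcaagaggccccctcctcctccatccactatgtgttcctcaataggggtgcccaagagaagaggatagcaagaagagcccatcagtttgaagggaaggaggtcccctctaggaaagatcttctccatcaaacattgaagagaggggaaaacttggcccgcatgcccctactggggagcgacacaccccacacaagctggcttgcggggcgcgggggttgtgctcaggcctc
Id2: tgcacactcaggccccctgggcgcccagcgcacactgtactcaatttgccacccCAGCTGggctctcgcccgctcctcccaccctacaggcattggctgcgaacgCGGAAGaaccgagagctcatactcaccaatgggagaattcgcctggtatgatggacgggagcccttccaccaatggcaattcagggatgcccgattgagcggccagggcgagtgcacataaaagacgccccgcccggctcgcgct
Id3: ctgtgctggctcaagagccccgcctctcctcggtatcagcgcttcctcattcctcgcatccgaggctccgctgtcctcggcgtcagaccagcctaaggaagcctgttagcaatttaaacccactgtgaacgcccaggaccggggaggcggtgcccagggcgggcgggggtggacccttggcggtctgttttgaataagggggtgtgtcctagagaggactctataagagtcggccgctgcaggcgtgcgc
The Id2 window held 1 E-box and 1 ETS core, 196 and 145 bases before the start, and the E-box match reads the same on both strands. None of the 5 cores was in the printed windows of Lef1, Satb1 and Id3, which says only that these letters are not there.

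Of the 9 genes 5 fell after anti-DCIR2-BDC against PBS: Lef1, Ets1, Foxo1, Id2 and Satb1, to between 42.5% and 62.3% of the PBS level. After anti-DEC205-BDC 2 of them fell, Lef1 and Satb1, to 56.1% and 61.5% of the PBS level. Foxo3, Foxp1, Bach2 and Id3 did not pass in either comparison, and 0 of the 9 rose. In limma, at an adjusted p of 0.05 over all genes, 7.82% of genes were called lower after anti-DCIR2-BDC and 3.53% after anti-DEC205-BDC, and 10.1% and 5.32% were called higher. Calls were more frequent among brighter genes, where all 9 lie. Without the dimmest 50% of genes, 1518 of 9969 were lower and 2126 higher after anti-DCIR2-BDC. For anti-DEC205-BDC these numbers were 830 and 1235. Both anti-DCIR2-BDC arrays lay below both PBS arrays for 6 of the 9 genes and above for 1, which was so for 31.9% and 23.4% of all genes. For anti-DEC205-BDC these counts were 5 and 1, where 26.5% and 22.2% of all genes lay so. Among the 5 is Id2, whose DEC205 array 1 lay barely below PBS array 1 (7.9941 and 7.9994). The median log2 change of the 9 was -0.68 after anti-DCIR2-BDC, against -0.05 over all genes, and -0.33 after anti-DEC205-BDC, against -0.03. Both comparisons use the same 2 PBS arrays, so their changes are not independent. In these bulk samples fewer cells that express a gene and less RNA per cell cannot be told apart.

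**Figure D1:**
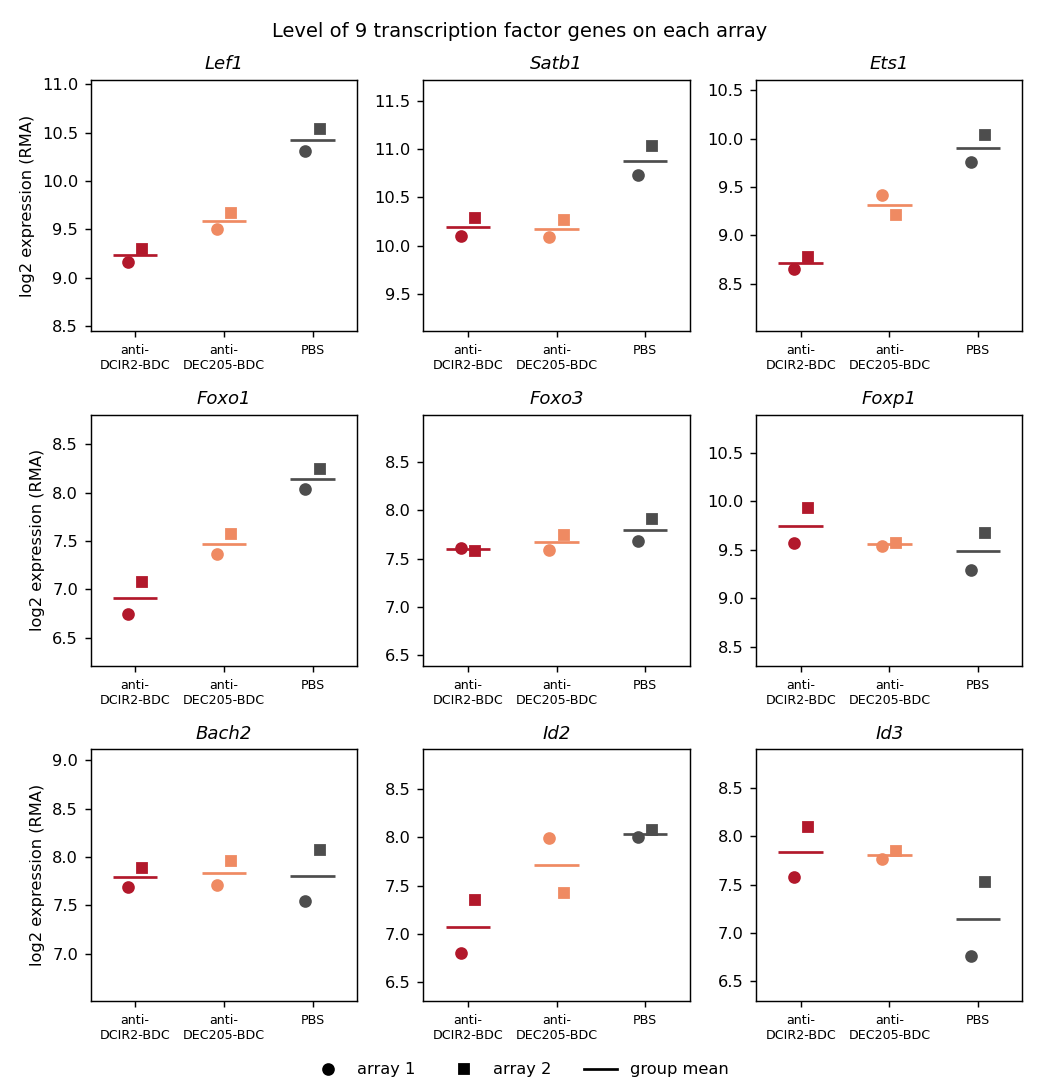
Each panel plots the log2 expression of 1 gene (vertical axis, the same span of log2 units in every panel) on the 2 arrays of each group, with a line at the group mean. Lef1, Ets1 and Foxo1 are lowest after anti-DCIR2-BDC, intermediate after anti-DEC205-BDC and highest with PBS, with no overlap between groups, Satb1 is at like levels in both antibody groups, and Bach2 overlaps in all groups.

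Some markers of T cells and of natural killer and innate lymphoid cells also fell after anti-DCIR2-BDC, where 7.82% of all genes were called lower and 10.1% higher. The calls in the B cell, dendritic cell and macrophage lists were 0 or 1 each, near or below these shares. Of 11 measured T cell markers 7 fell and 1 rose, led by Trat1 (-1.72) and Cd3g (-1.24) (limma adjusted p = 0.000868 and 0.000221), and the summed linear signal of the list was 11900 to 12100 after anti-DCIR2-BDC, 14800 to 15700 after anti-DEC205-BDC and 18400 to 19000 with PBS. Of 9 markers of natural killer and innate lymphoid cells, which also express Id2, 4 fell and 1 rose, led by Klrd1 (-2.62, adjusted p = 0.000333), with sums of 337 to 371, 455 to 481 and 548 to 577 in the same order. The marker that rose was Eomes, which also stands among the stemness genes described later. The defining markers Ncr1 and Klrb1c lay at percentiles 12.7 and 6.6 of all genes, and an array gives no value of 0. Of 10 B cell markers, a cell type that also expresses Foxo1, Ets1, Bach2 and Foxp1, 0 rose and 0 fell in limma, with 2 lower and 0 higher at an unadjusted p under 0.05, and sums of 339 to 345, 380 to 385 and 352 to 418. Of 10 dendritic cell markers 1 fell and 0 rose, with a median log2 change of 0.0035, against -0.049 over all genes. Their sums were 351 to 366, 386 to 387 and 455 to 460, which did not overlap, but a sum weighs bright markers most. The 1 that fell was Ly75, the brightest of the list, which encodes DEC205. Its log2 change was -1.10 after anti-DCIR2-BDC and -0.75 after anti-DEC205-BDC (limma adjusted p = 0.00182 and 0.0297). The second call of Ly75 was lost under 8 of 17 alternatives, among them those without any 1 of the 6 arrays (0.0562 to 0.133). Of 7 macrophage and monocyte markers 0 passed, with 3 lower and 0 higher at an unadjusted p under 0.05 after anti-DCIR2-BDC, and sums of 334 to 394, 425 to 487 and 441 to 501. The share of all genes at an unadjusted p under 0.05 against PBS was not counted. The B cell and macrophage counts at that threshold therefore have no background to be set against. The part of these cell types in the changes of the 9 genes was not tested.

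Lef1 had log2 values of 9.16 and 9.30 after anti-DCIR2-BDC, 9.50 and 9.67 after anti-DEC205-BDC and 10.31 and 10.53 with PBS. Its 3 groups did not overlap, and the anti-DCIR2-BDC arrays were lowest. The log2 change was -1.19 after anti-DCIR2-BDC against PBS (standard error 0.16, limma adjusted p = 0.000514), a level 43.9% of that in PBS with a 95% interval from 34.4% to 55.9%. After anti-DEC205-BDC it was -0.83 (standard error 0.16, adjusted p = 0.00942). The first call held under all 17 alternatives tried, while the second was lost on leaving out PBS array 2 (adjusted p = 0.0645) or DEC205 array 1 (0.0614) and on testing every probe set (0.0556).

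Satb1 stood at 10.11 and 10.28 after anti-DCIR2-BDC, 10.09 and 10.26 after anti-DEC205-BDC and 10.73 and 11.03 with PBS. Both antibody groups lay below the PBS arrays and overlapped with each other. It fell by 0.68 on the log2 scale after anti-DCIR2-BDC (standard error 0.15, limma adjusted p = 0.00933) and by 0.70 after anti-DEC205-BDC (standard error 0.15, adjusted p = 0.0164). The log2 difference between the antibodies was 0.02, with a 95% interval from -0.31 to 0.35. Without PBS array 2 neither call was kept (adjusted p = 0.0816 and 0.114), the first was also lost on leaving out DCIR2 array 1 (0.0743), and the second on leaving out DEC205 array 1 (0.1) and on testing every probe set (0.085).

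Ets1 had log2 values of 8.65 and 8.77 after anti-DCIR2-BDC, 9.42 and 9.21 after anti-DEC205-BDC and 9.76 and 10.04 with PBS. The groups were fully separated, with anti-DEC205-BDC in the middle. After anti-DCIR2-BDC the log2 change was -1.19 (standard error 0.17, limma adjusted p = 0.00092), or 43.9% of the PBS level, a call kept under all 17 alternatives. After anti-DEC205-BDC it was -0.58 with a 95% interval from -0.97 to -0.20, which did not pass (adjusted p = 0.0694) but did under 3 of the 17 alternatives (range 0.0309 to 0.31).

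Foxo1 stood at 6.74 and 7.08 after anti-DCIR2-BDC, 7.36 and 7.57 after anti-DEC205-BDC and 8.04 and 8.25 with PBS. As with Ets1, no group overlapped another and anti-DCIR2-BDC was lowest. Its log2 change after anti-DCIR2-BDC was -1.24 (standard error 0.20, limma adjusted p = 0.00182), or 42.5% of the PBS level, the lowest of the 9 genes, and it passed under all 17 alternatives. After anti-DEC205-BDC it was -0.68, with a 95% interval from -1.13 to -0.23 (adjusted p = 0.0701), and it passed under 5 of the 17 alternatives (range 0.026 to 0.263).

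Foxo3, the other forkhead O factor measured among the 9, lay within a narrow band: 7.61 and 7.59 after anti-DCIR2-BDC, 7.59 and 7.75 after anti-DEC205-BDC and 7.68 and 7.92 with PBS. The anti-DCIR2-BDC arrays were just below both PBS arrays, and the anti-DEC205-BDC arrays overlapped PBS. Its log2 changes were -0.20, with a 95% interval from -0.62 to 0.22, and -0.13, with an interval from -0.55 to 0.29 (limma adjusted p = 0.569 and 0.782). A fall as large as that of Foxo1 after anti-DCIR2-BDC lies outside the first interval.

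Foxp1 had 9.57 and 9.93 after anti-DCIR2-BDC, 9.54 and 9.57 after anti-DEC205-BDC and 9.30 and 9.68 with PBS. All groups overlapped PBS, and the log2 changes were 0.26 (95% interval from -0.15 to 0.68) and 0.07 (-0.34 to 0.48), neither of which passed (limma adjusted p = 0.422 and 0.898). Bach2 had 7.69 and 7.89 after anti-DCIR2-BDC, 7.71 and 7.96 after anti-DEC205-BDC and 7.54 and 8.07 with PBS. The PBS arrays lay further apart than those of the other groups and enclosed both antibody groups. The log2 changes of Bach2 were -0.01 (95% interval from -0.51 to 0.48) and 0.03 (-0.47 to 0.53), so changes within these bounds are not excluded (limma adjusted p = 0.979 and 0.964).

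Of the Id genes, Id2 fell after anti-DCIR2-BDC and Id3 did not pass, with measured changes above 0. Id2 had 6.80 and 7.35 after anti-DCIR2-BDC, 7.99 and 7.42 after anti-DEC205-BDC and 7.999 and 8.07 with PBS. DEC205 array 1 was at the level of PBS array 1 and DEC205 array 2 close to DCIR2 array 2. Id2 fell by 0.96 on the log2 scale after anti-DCIR2-BDC (standard error 0.25, limma adjusted p = 0.0217), to 51.4% of the PBS level, and its change after anti-DEC205-BDC was -0.33 (adjusted p = 0.532). The call was lost on leaving out any 1 of PBS array 1 (adjusted p = 0.0662), PBS array 2 (0.0848) and DCIR2 array 1 (0.196), and on testing every probe set (0.096).

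Id3 had 7.58 and 8.10 after anti-DCIR2-BDC, 7.76 and 7.85 after anti-DEC205-BDC and 6.76 and 7.52 with PBS. Each antibody array was above both PBS arrays, but the PBS arrays differed from each other by 0.76. The log2 changes were 0.70 (standard error 0.27) after anti-DCIR2-BDC and 0.67 (standard error 0.27) after anti-DEC205-BDC, and neither passed (limma adjusted p = 0.114 and 0.189). Without PBS array 2 the first was 1.08 and passed (adjusted p = 0.0234), and without PBS array 1 it was 0.32 (0.579), so the size rests on which PBS array is kept.

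**Figure D2:**
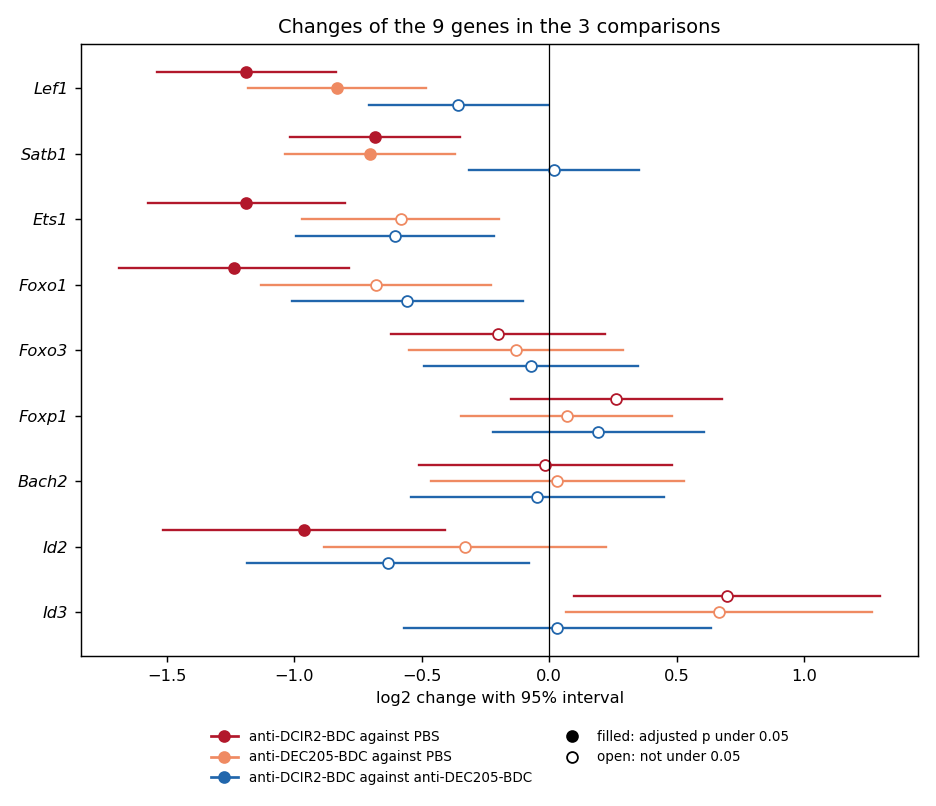
Points are log2 changes (horizontal axis) of each gene in 3 comparisons with limma's 95% intervals as bars, filled where the adjusted p was under 0.05. The filled points are 5 falls after anti-DCIR2-BDC and 2 after anti-DEC205-BDC, and no point between the antibodies is filled.

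Between anti-DCIR2-BDC and anti-DEC205-BDC 0 of the 9 genes passed in limma, where 0.0201% of all genes were called higher and 0.0% lower. At an unadjusted p under 0.05 4 genes were lower after anti-DCIR2-BDC and 0 higher, where 4.63% and 5.58% of all genes were. These were Ets1 with a log2 difference of -0.60 (95% interval from -0.99 to -0.22, adjusted p = 0.288), Foxo1 with -0.56 (-1.01 to -0.10, adjusted p = 0.4), Id2 with -0.63 (-1.19 to -0.08, adjusted p = 0.434) and Lef1 with -0.36 (-0.71 to -0.01, adjusted p = 0.482). In each of the 4 both anti-DCIR2-BDC arrays lay below both anti-DEC205-BDC arrays, which was so for 20.9% of all genes, and in 0 of the 9 both lay above, against 19.3% of all genes. The extra calls against PBS after anti-DCIR2-BDC are therefore not shown to be particular to that antibody.

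**Figure D3:**
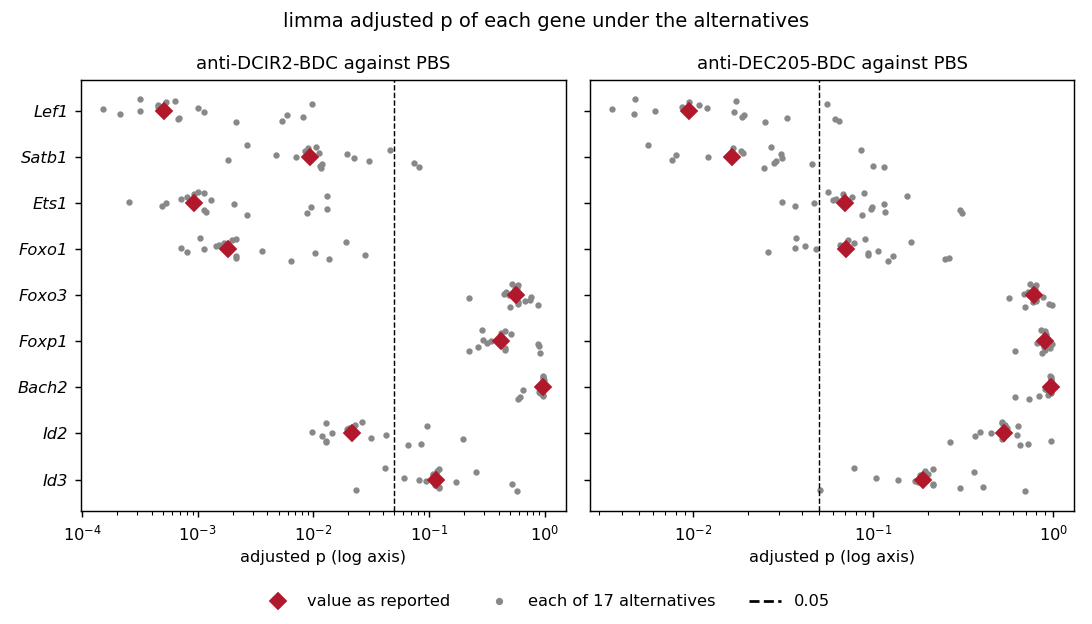
The horizontal axes give limma's adjusted p on a log scale for each gene against PBS, with a diamond for the reported value and a dot for each of 17 alternatives. For Lef1, Ets1 and Foxo1 all dots lie left of 0.05 after anti-DCIR2-BDC, whereas dots lie on both sides of it for Id2 and Satb1.

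Counts in the lists from here on stand beside these shares of all genes. After anti-DCIR2-BDC 7.82% were called lower and 10.1% higher, and after anti-DEC205-BDC 3.53% and 5.32%. Most of the listed genes that Foxo factors and Klf2 switch on in resting T cells fell. After anti-DCIR2-BDC 12 of the 13 measured (of 14 listed) fell and 0 rose, with a median log2 change of -1.59. The largest falls were those of Il7r (-2.64), which encodes a receptor for the cytokine that keeps naive T cells alive, Txnip (-2.40), which limits glucose uptake, the cell cycle inhibitor Cdkn1b (-2.20) and the egress receptor S1pr1 (-2.04), with limma adjusted p from 0.000111 to 0.000143. After anti-DEC205-BDC 8 of 13 fell and 0 rose (median -1.08), led by Il7r (-1.88), S1pr1 (-1.70), Txnip (-1.58) and Pik3ip1 (-1.45), a brake on PI3 kinase. Of these, Il7r and Txnip after anti-DEC205-BDC were lost with every probe set (adjusted p = 0.0543 and 0.0545).

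Among other quiescence factors 12 of 18 fell and 0 rose after anti-DCIR2-BDC (median -1.05). Beside Txnip and Cdkn1b they were led by the translation inhibitor Pdcd4 (-2.12, limma adjusted p = 9.77e-05) and the antiproliferative gene Btg2 (-2.03, adjusted p = 0.000236). After anti-DEC205-BDC 7 of 18 fell and 0 rose (median -0.66), among them the transcription factor Klf2 (-1.08, adjusted p = 0.00648) and Btg2 (-1.08, adjusted p = 0.0168). Klf2 was lost with every probe set (adjusted p = 0.0504), as was Btg2 (0.11), which was also lost on leaving out PBS array 1 (0.117) or DEC205 array 2 (0.114).

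Of the genes linked to T cell stemness, more fell than rose in both comparisons with PBS. Over all genes 10.1% were called higher after anti-DCIR2-BDC, so the 1 rise there is not read as a trait of the list. After anti-DCIR2-BDC 6 of the 10 measured fell and 1 rose (median -0.74). The falls included Slamf6 (-1.15), a surface receptor of stem-like T cells, the survival gene Bcl2 (-1.08) and Axin2 (-1.06), a target of TCF and LEF factors, with limma adjusted p from 0.0017 to 0.00284, and the 1 that rose, named after its values were seen, was the T-box factor gene Eomes (1.06, adjusted p = 0.0198). The call of Eomes was lost on leaving out PBS array 2 (0.64, adjusted p = 0.139), DCIR2 array 1 (0.0506) or DCIR2 array 2 (0.177) and on testing every probe set (0.102). After anti-DEC205-BDC 3 of 10 fell and 2 rose (median -0.39). The rises were Myb (1.66, adjusted p = 0.00145), a factor needed for self-renewal of memory T cells, and Eomes (1.64, adjusted p = 0.00494, 0.0654 with every probe set). Myb changed by 0.43 after anti-DCIR2-BDC (adjusted p = 0.214), and the difference between the antibodies was -1.22 (adjusted p = 0.147), so it did not pass.

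Of the cofactors of Tcf7 and Lef1, 3 of 9 fell and 0 rose after anti-DCIR2-BDC (median 0.23). They were Tle5 (-1.39, limma adjusted p = 0.000345) and the corepressor Tle4 (-0.94, adjusted p = 0.00817), both of the Groucho family, and the beta-catenin cofactor Bcl9l (-0.87, adjusted p = 0.00962). Tle4 was lost on leaving out PBS array 2 (adjusted p = 0.0579), DCIR2 array 1 (0.0582) or DCIR2 array 2 (0.0621), and Bcl9l on leaving out PBS array 2 (0.0564) or DCIR2 array 1 (0.0844). After anti-DEC205-BDC 1 of 9 fell and 0 rose (median 0.04), the 1 being Tle5 (-0.65, adjusted p = 0.0447), which 9 of 17 alternatives lost, among them those without any 1 of the 6 arrays (0.0627 to 0.223).

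Upstream of Foxo, 5 of 11 measured regulators fell and 1 rose after anti-DCIR2-BDC (median 0.04). The falls were led by Pik3ip1 (-1.70), the kinase gene Sgk1 (-1.66) and Pik3r1 (-1.28), a regulatory subunit of PI3 kinase, and the rise was Ywhae (1.22), one of the 14-3-3 proteins that hold phosphorylated Foxo outside the nucleus (limma adjusted p from 0.000164 to 0.00186). After anti-DEC205-BDC 3 of 11 fell and 1 rose (median -0.15), Sgk1 by -1.39 (adjusted p = 0.00472) and Ywhae by 0.73 (adjusted p = 0.00718). These were lost with every probe set (Sgk1, 0.0546) or without DEC205 array 1 (Ywhae, 0.0512).

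**Figure D4:**
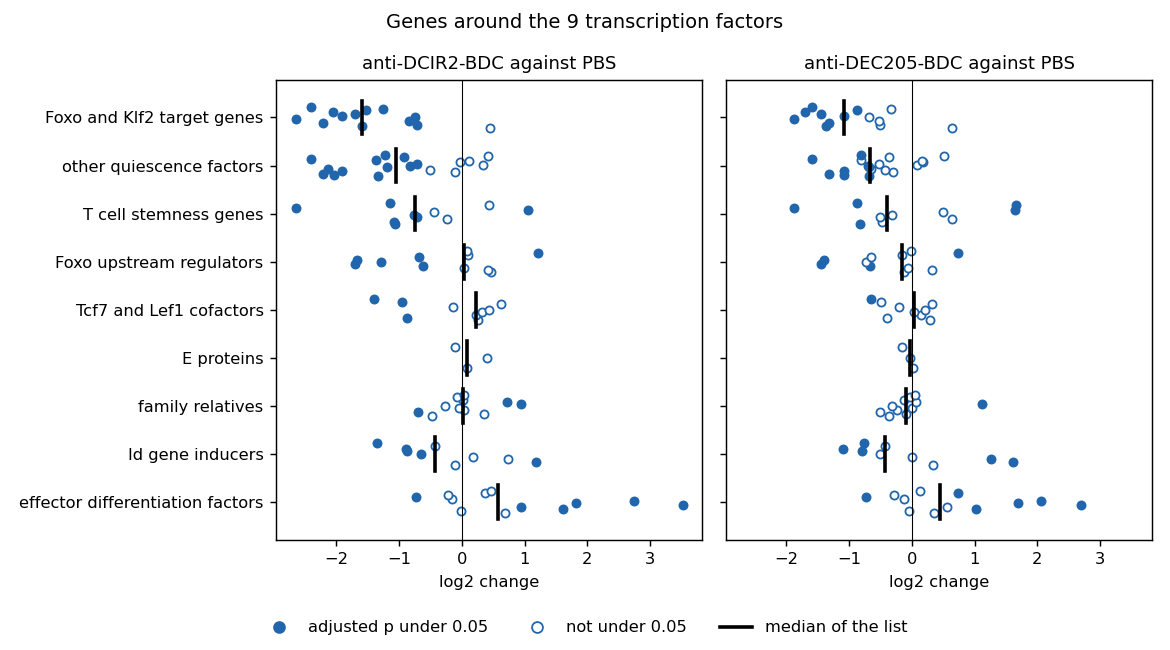
Each point is a gene of a list around the 9 factors, at its log2 change against PBS (horizontal axis), filled where limma's adjusted p was under 0.05, and bars are list medians. Medians lie at -1.59 and -1.08 for the Foxo and Klf2 target genes and at 0.58 and 0.45 for the effector differentiation factors, after anti-DCIR2-BDC and anti-DEC205-BDC.

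The E proteins that Id2 and Id3 bind did not pass: 0 of 3 (Tcf3, Tcf4 and Tcf12) rose or fell in limma in any comparison, with 0 at an unadjusted p under 0.05 against PBS and Tcf3 alone (0.43, higher after anti-DCIR2-BDC) between the antibodies. Of the genes linked to the induction of Id genes, Egr factors and the TGF-beta pathway, more fell than rose in both comparisons with PBS. The list also counts Smad7, an inhibitor of that pathway. After anti-DCIR2-BDC 1 of 9 rose, Egr2 (1.18, adjusted p = 0.00136), and 4 fell, led by the receptor Tgfbr2 (-1.34, adjusted p = 0.00128). A count of 1 is near the 10.1% of all genes called higher there and is not read as a trait of the list. After anti-DEC205-BDC 2 rose, Egr2 (1.61, adjusted p = 0.000939) and Egr3 (1.27, adjusted p = 0.0293), and 3 fell, led by the inhibitor Smad7 (-1.10, adjusted p = 0.0111). Egr3 was lost under 6 of 17 alternatives (adjusted p up to 0.168), among them those that left out PBS array 1 (log2 change 0.82), DEC205 array 2, DCIR2 array 1 or DCIR2 array 2, and Smad7 on leaving out DEC205 array 1 (0.0568) or on testing every probe set (0.0727).

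Among relatives of the 9, 2 of 11 rose and 1 fell after anti-DCIR2-BDC (median 0.025): Foxp4 (0.94, limma adjusted p = 0.00726), Id1 (0.71, adjusted p = 0.0333) and Foxo4 (-0.70, adjusted p = 0.0164). Over all genes 10.1% rose and 7.82% fell, so these small counts are not read as a trait of the relatives. Foxp4 was lost on leaving out PBS array 1 (adjusted p = 0.0549) or DCIR2 array 1 (0.0613), and Foxo4 on leaving out PBS array 2 (0.0762) or DCIR2 array 2 (0.139) and on testing every probe set (0.0579). Id1 was lost on leaving out PBS array 1 (0.06), PBS array 2 (0.161) or DCIR2 array 2 (0.43, adjusted p = 0.26) and on testing every probe set (0.125). After anti-DEC205-BDC Foxp4 rose (1.12, adjusted p = 0.00667, 0.0536 with every probe set), and 0 of 11 fell.

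Among factors of effector differentiation more genes rose than fell. After anti-DCIR2-BDC 5 of 12 rose and 1 fell (median 0.58), and after anti-DEC205-BDC 5 rose and 1 fell (median 0.45). Irf4, which responds to the strength of the receptor signal, rose by 3.52 and 2.70 on the log2 scale after anti-DCIR2-BDC and anti-DEC205-BDC (limma adjusted p = 3e-05 and 0.000251), and the growth regulator Myc by 2.74 and 2.06 (adjusted p = 0.000189 and 0.0028, the second 0.0613 with every probe set). The 1 that fell in each was Prdm1, the effector factor that Bach2 represses, named after its values were seen, at -0.73 in both (adjusted p = 0.0188 and 0.0328). Prdm1 is dim, with log2 means of 4.40 after anti-DCIR2-BDC, 4.39 after anti-DEC205-BDC and 5.12 with PBS, below the array medians, and it is among the dimmest 30% of genes, so both dim-gene filters drop it and 15 alternatives are left. The first call of Prdm1 was lost on leaving out PBS array 1 (-0.45, adjusted p = 0.137) or DCIR2 array 1 (0.161) and on testing every probe set (0.1), and the second in 9 of 15 alternatives, up to 0.193 when PBS array 1 was left out (-0.46).

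Over the 6 arrays the gene most alike in pattern to Lef1 was Hp1bp3 (Pearson r = 0.999), to Foxo1 the lymphotoxin gene Ltb (r = 0.999) and to Ets1 Traf3ip3 (r = 0.996), out of 1848 genes whose group means spanned at least 1 on the log2 scale. Ltb had log2 values of 9.37 and 9.72 after anti-DCIR2-BDC, 10.10 and 10.36 after anti-DEC205-BDC and 10.85 and 11.16 with PBS. The groups of Ltb did not overlap, in the order seen for Foxo1. These are descriptions over 6 arrays that share their normalization.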

How the data were processed

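Affymetrix arrays measured expression in 6 samples, 2 per group. Per the labels' protocols, 5 ng of total RNA was amplified and labelled with biotin. Each deposited value is a log2 level of 1 probe set, computed by the authors through RMA with Partek software, per the submitters' processing notes and the series' own design text, with no version given. RMA normalizes between arrays, which can hide a shift of every gene, though the deposited array medians still ran from 5.43 to 5.56, and the number of arrays limits the precision. Of 35556 probe sets, 21789 had 1 gene symbol in the platform annotation (21698 matched to RefSeq by Entrez identifier), and the brightest per gene left 19938 genes. The test was limma 3.58.1 under R 4.3.3, fitting a mean for each group to all 6 arrays at once, with a variance trend on level, two-sided tests and Benjamini-Hochberg adjustment over all genes, and the procedure was tested on simulated data. The 9 lists of related genes held 3 to 18 measured genes. Genes of a list were named by a rule: up to 4 with the largest change, passing ones first. The most alike gene was sought for members whose group means spanned at least 1. The members and lists were chosen with earlier results of these data known, so they are no independent support. The files name no batch. The 17 alternatives left out each array, or changed the scaling, the dim-gene filter, the variance model, the probe sets, the arrays fitted or added a replicate block.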

Additional observations from a re-analysis of the deposited data

How the results depend on the processing

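Lef1, Ets1 and Foxo1 after anti-DCIR2-BDC kept their calls under all 17 alternatives. These are not 17 separate checks. Each of the 9 genes has 1 probe set, so the alternative with the second brightest probe set used the same values for them. Only leaving out an array of a compared group, quantile normalization and median centring moved the log2 change of the 9 genes. The others could change only the p-values. The number of the 9 genes lower after anti-DEC205-BDC was 2 as reported, 4 with quantile normalization, without the dimmest 30% or without the dimmest 50% of genes, and 0 with every probe set, and from 0 to 2 when an array was left out. After anti-DCIR2-BDC 5 were lower, from 3 to 5 when an array was left out. There 0 were higher, from 0 to 1 when an array was left out, and 1 with the replicate block, Id3 (adjusted p = 0.0418). Between the antibodies 0 passed under all alternatives.

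Signs turned only in genes that did not pass in that comparison, with log2 changes near 0. After anti-DEC205-BDC Bach2 turned to -0.058 and Foxp1 to -0.0096 with quantile normalization, and leaving out an array gave -0.23 to 0.30 for Bach2 and -0.12 to 0.26 for Foxp1. After anti-DCIR2-BDC Bach2 turned to 0.060 with median centring and ranged from -0.28 to 0.25 with an array left out. Between the antibodies, Satb1 turned to -0.091 and Id3 to -0.050 with quantile normalization. With an array left out Satb1 ranged from -0.070 to 0.11, Bach2 from -0.17 to 0.079, Foxo3 from -0.15 to 0.0047 and Id3 from -0.22 to 0.29. The cause was not tested.

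Over all genes 3568 passed after anti-DCIR2-BDC (2285 without DCIR2 array 1, 2090 without DCIR2 array 2) and 1763 after anti-DEC205-BDC (694 with every probe set, and 1013, 1131 and 997 on leaving out PBS array 1, DEC205 array 1 or DEC205 array 2). Between the antibodies 4 passed (0 to 27 under the alternatives). The labels do not say that equal replicate numbers share a mouse or day. Differences between arrays 1 and 2 correlated over genes at 0.14 (DEC205 and PBS), 0.13 (DCIR2 and PBS) and 0.07 (DCIR2 and DEC205). The replicate block moved the counts to 3885, 2069 and 2, and let Foxo1 after anti-DEC205-BDC pass (adjusted p = 0.0372), beside Id3 after anti-DCIR2-BDC. It changed no call of the 9 genes apart from these.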
